A study of Mus musculus with 6 samples.

Results

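The transcripts of 2 genes that act on chromatin in early embryonic cells, Jarid2 and Dnmt3l, were followed through drop-based single-cell RNA-Seq of 2 mouse cell types, the V6.5 line of embryonic stem cells (mES) kept in medium with LIF, and embryonic fibroblasts (mEF) of 10.5 p.c.. No treatment or genetic change is given for either cell type. The reads of each cell type were pooled by the authors over 6 libraries, all of which are labelled with both cell types. There is therefore 1 mES aggregate of 750739 alignment records and 1 mEF aggregate of 459005, so the labels give no replicates and the cell types were not tested against each other. A record is 1 alignment of 1 read, and its position is the 5' end of that read. The authors assigned the barcodes to the cell types, and as the read names carry no barcode, drops with more than 1 cell and transcripts from other drops were not analysed here. The number of cells behind each aggregate is not in the files, so that fewer cells of a type and less RNA per cell cannot be told apart.

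The members were the plus-strand records whose 5' end lay in a window around each gene in the mm9 build, 193501 nt on chromosome 13 for Jarid2 and 22501 nt on chromosome 10 for Dnmt3l. The records found in them began between 44846379 and 45016938 for Jarid2 and between 77526036 and 77526308 for Dnmt3l. Both genes were chosen from their measured levels, high in mES and low in mEF, so the contrast between the cell types is given as a description. The windows held 799 of the 750739 mES records, 529 for Jarid2 and 270 for Dnmt3l, and 0 of the 459005 mEF records. The gene names come with the windows, since the annotation used here is of another build, GRCm38. For the same reason the defining markers of the 2 cell types, the other subunits of the complexes and the other DNA methyltransferases were not analysed here.

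Jarid2 is a DNA-binding protein of the Jumonji family that lacks the demethylase activity of its relatives. It associates with Polycomb repressive complex 2 (PRC2), which methylates histone H3 at developmental genes, and it is known for helping to bring this complex to its targets in embryonic stem cells. Dnmt3l is a relative of the de novo DNA methyltransferases that has no catalytic activity of its own. It binds Dnmt3a and Dnmt3b, stimulates them, and is best known from germ cells, where imprints are set, and from embryonic stem cells.

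The barcoded primer carries a stretch of T and binds the poly(A) tail, so that the ends of the transcripts decide where reads can begin. The last 30 bases of the annotated transcripts are printed for that reason, from GENCODE M21 on GRCm38, with a polyadenylation signal (AATAAA or ATTAAA, read on the transcript strand) in capitals or, where neither occurs, runs of 5 or more A in capitals. The coding Jarid2 transcripts that share one last intron end at 3 places in the last exon, 309, 1196 and 1844 nt from its start. The longest last exon of a coding Dnmt3l transcript is 436 nt.
Jarid2, end at 309 nt: actgattttgttttagcATTAAActgttca
Jarid2, end at 1196 nt: atgttttaacAAAAAAgAAAAAAAgAAAAA
Jarid2, end at 1844 nt: gtttaatAATAAAaagttttttggacattt
Dnmt3l, end at 436 nt: ttcaaatatatcataggattgttactggta
The Jarid2 ends at 309 and 1844 nt carry a signal, and the one at 1196 nt ends in a stretch with 21 A among 30 bases. The Dnmt3l end printed here has neither, and ends of other Dnmt3l transcripts are not shown. Of 58793 annotated protein-coding transcripts, 44.1% hold a signal in their last 30 bases and 14.8% a run of 5 A. Over the longest Jarid2 last exon, signals begin at bases 297, 479, 1443 and 1822.

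Jarid2 was the more widely spread of the 2 genes. Its 529 mES records lay at 43 distinct positions, and 528 of them had the highest mapping score, which was taken as a single placement. The window level was 705 CPM, that is, records per 1000000 records of the aggregate (95% exact Poisson interval 646 to 767). This interval covers only the counting error of records taken as independent. PCR copies of one molecule are counted as separate reads, so it can be too narrow for molecules. No mEF record fell in the window, where a count of 0 allows up to 3 counts or 6.54 CPM, and at the mES level 323 mEF records would have been counted. With records taken as independent, the measured mES level was thus 108-fold this limit. The interval of the mES level is not part of that ratio, so it is not a lower bound. Over the mEF aggregate a position held 18.2 records on average, more than the 3 that stand in for 0. The ratio in records can therefore be too high. Counted by distinct positions, and with 3 positions standing in for the mEF value of 0, the measured Jarid2 value was 6.71-fold higher.

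Dnmt3l was the more compact. Its 270 mES records lay at 12 positions, all with the highest mapping score, although GENCODE lists a processed pseudogene of the same gene. The window level was 360 CPM (318 to 405). No mEF record was found against 165 at the mES level. The measured mES value of Dnmt3l was 55.0-fold the level of 3 mEF counts with records taken as independent, and 1.87-fold in positions. The ratio in positions is low because 12 positions are compared with the 3 that stand in place of 0. The counting error of the 12 positions is not part of it, so it is not a lower bound. The levels of the 2 genes are not compared with each other, since each is set by its own ends and positions.

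For each gene a single 3' end locus held most of these records, where a locus is a chain of same-strand 5' ends of either aggregate with no step above 500 nt. The Jarid2 locus ran from 45015257 to 45016938 on chromosome 13, with 417 records at 28 positions, and the Dnmt3l locus from 77526036 to 77526308 on chromosome 10, with all 270 records at 12 positions. Among 4321 loci with at least 50 records, 30.2% were over 4-fold higher in mES and 19.8% had no mEF record, so that absence from mEF is common at this depth. It was rarer where a locus had many positions. Of the 694 loci with at least 10 mES positions, 5.19% had no mEF record, and both genes were among these 36. Of all 18011 loci without a mEF record, 83.6% rested on 1 position, none had more positions than Jarid2, and 10 had more than Dnmt3l. The members were chosen on this contrast, so these ranks are a description.

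**Figure D1:**
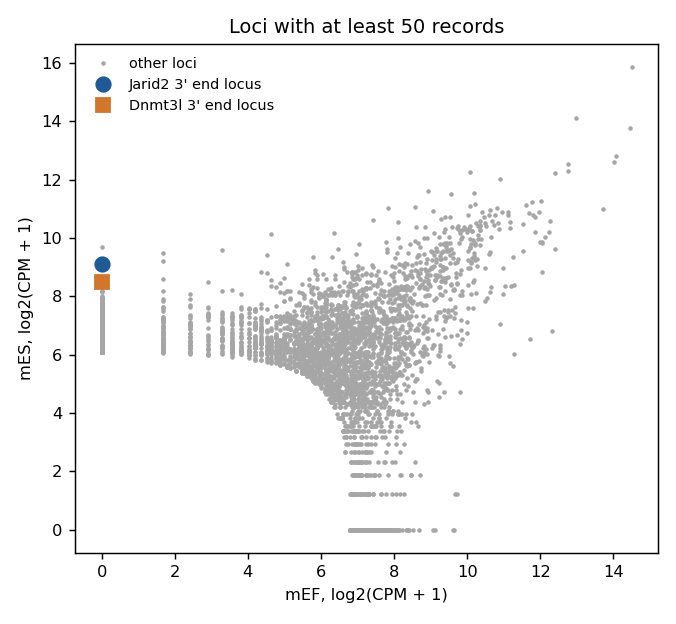
Level in mES against level in mEF, both as log2(CPM + 1), for the 4321 loci with at least 50 records, with the 3' end loci of Jarid2 (circle) and Dnmt3l (square) marked. Both lie on the left edge, where the mEF aggregate has no record, at 555 CPM and 360 CPM in mES.

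The read names show 3 sequencing runs, numbered by their records, and runs 1 and 2 mostly read the same positions again. They were therefore joined as library set 1, with run 3 as library set 2. These names are given here, since no label or read name tells which libraries a run holds. Runs are technical parts of each aggregate and not replicates of a cell type. Run 1 held 328 Jarid2 records in mES, run 2 held 173 and run 3 held 28. The corresponding levels were 748 CPM (669 to 833), 851 CPM (729 to 987) and 257 CPM (171 to 372). In records, the Jarid2 level was lowest in run 3. With records taken as independent, its interval did not overlap those of the other runs, which overlapped each other. In distinct positions per 1000000 positions of the run, the gap was small, with 797 in run 1, 909 in run 2 and 713 in run 3.

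Dnmt3l followed the same order of depth with 188, 74 and 8 mES records. Its levels were 429 CPM (370 to 495) in run 1, 364 CPM (286 to 457) in run 2 and 73.5 CPM (31.7 to 145) in run 3. The value of run 3 again lay below the others, with no overlap of the intervals. The intervals take records as independent, while the 8 records of run 3 were 4 reads at 1 position, so the gap was not tested. In distinct positions the value of run 3 was also lower, at 71.3 per 1000000 against 267 in set 1. A single locus on chromosome 17 took 32.0% of the mES records of run 3 and 1.54% of those of set 1. With that locus left out of the totals, Jarid2 was at 379 CPM in run 3 and 793 CPM in set 1, and Dnmt3l at 108 and 415 CPM, so that the lower level of run 3 in records was seen for both genes with and without it.

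No mEF record was found in any run. The limit was 10.2 CPM in run 1, 22.2 CPM in run 2 and 101 CPM in run 3, where the mEF aggregate has 29681 records. At the mES level of each set, 335 Jarid2 records would have been counted in the mEF records of set 1 and 7.64 in those of run 3. For Dnmt3l these numbers were 175 and 2.18. A difference between the cell types in Dnmt3l was therefore not detectable at the depth of run 3, and the absence from mEF rests on set 1.

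**Figure D2:**
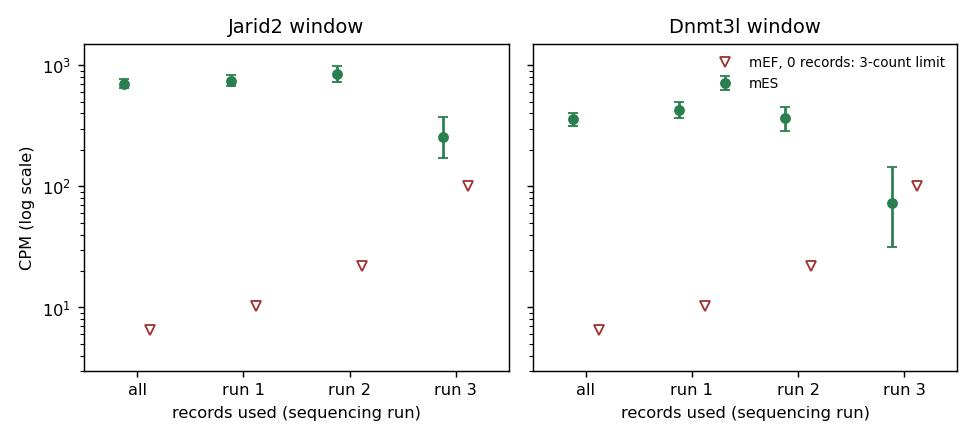
Level of the Jarid2 and Dnmt3l windows in CPM on a log scale, for all records and for each sequencing run, with 95% exact Poisson intervals for mES (filled circles). Open triangles give the level of 3 counts for mEF, which has 0 records throughout, and only in run 3 does the mES value of Dnmt3l lie below this limit.

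The protocol reads the 3' ends of transcripts, so the last 2 kb of each window were compared with the rest. For Jarid2, 406 of the 529 mES records, 76.7% (95% exact binomial interval 72.9 to 80.3), lay in the last 2 kb, and 123 in the other 191501 nt. This was 203 records per kb against 0.642. In distinct positions the share was 62.8% (46.7 to 77.0), with 27 of 43, or 13.5 positions per kb against 0.0836. Density was thus 316-fold higher at the 3' end in records and 162-fold higher in positions. Without run 3 these ratios were 404-fold and 356-fold, and run 3 itself, with 1 record in the last 2 kb, has too few for a ratio. The rest is genomic sequence with introns, while the longest of the Jarid2 transcripts printed above has 5997 nt in all. The ratios are therefore per kb of window and not along a spliced transcript. For Dnmt3l, all 270 records and all 12 positions lay in the last 2 kb, within 464 nt of the end of the window. A count of 0 among 270 records allows up to 3 in the rest of that window.

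The place of the Jarid2 records differed between the library sets. In set 1, 405 of 501 records lay in the last 2 kb, 80.8% (77.1 to 84.2), and the share was 81.1% in run 1 and 80.3% in run 2. In run 3, 1 of 28 records did, 3.57% (0.0904 to 18.3). In positions these shares were 26 of 33 in set 1, 78.8% (61.1 to 91.0), and 1 of 10 in run 3, 10.0% (0.253 to 44.5). The intervals of the 2 sets did not overlap in either unit. They cover counting error only, with each record or position taken as independent. With 1 library set on each side, the difference cannot be told apart from other differences between the sets. Read length is among these, with ungapped spans of 45 nt in run 3 and 35 nt in set 1. Outside the last 2 kb, the level of Jarid2 was 150 CPM (121 to 183) in set 1 and 248 CPM (164 to 361) in run 3. Within the last 2 kb it was 631 CPM (571 to 695) in set 1 and 9.19 CPM (0.233 to 51.2) in run 3. In distinct positions per 1000000, the last 2 kb were at 632 in set 1 and 71.3 in run 3, and the rest of the window at 170 and 642. Run 3 was thus lower at the 3' end. Over the rest of the gene its values were higher, but the intervals in records overlapped. In positions the rest holds only 7 of set 1 and 9 of run 3, and this difference was not tested. Dnmt3l kept its 8 records of run 3 at the 3' end, at 1 position.

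How often a locus has few positions in run 3 depended on its size. Of the 363 loci with 10 to 19 mES positions in set 1, the range of Dnmt3l with 11, 52.1% had at most 1 position in run 3, as Dnmt3l did. Of the 145 loci with 20 to 40, the range of Jarid2 with 27, 12.4% had at most 1, as Jarid2 did, and the median was 4. These ranges were chosen after the values were seen.

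**Figure D3:**
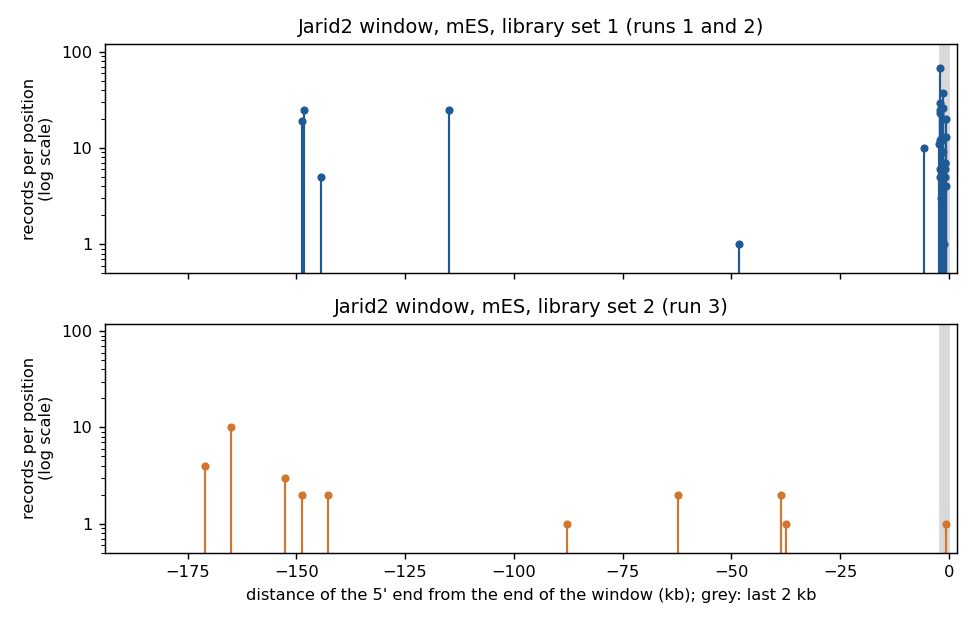
Records per position along the Jarid2 window in mES, on a log scale, against the distance from the end of the window in kb, for library set 1 (upper panel) and run 3 (lower panel), with the last 2 kb in grey. Set 1 piles up in the last 2 kb with 405 of 501 records, whereas 27 of the 28 records of run 3 are spread over the rest.

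Within the 3' end locus of Jarid2, the 28 positions fell into 6 groups when 5' ends at most 100 nt apart were joined, a distance chosen after the positions were seen. The first was a single position with 11 records. The second held 171 records at 8 positions over 104 nt, 41.0% of the locus, and included the position with the most records, 45015508, with 39 of run 1 and 29 of run 2. The next held 60 records at 4 positions, the fourth 112 at 7, the fifth 25 at 4 and the sixth 38 at 4. All 6 groups were found in both runs 1 and 2, and the single record of run 3 lay at the last position of all, 45016938. The records per position ran from 1 to 68 with a median of 11.5, and its top 3 positions made up 32.1% of the locus. The limit of 2 kb fell between the first group and the second, with 11 records at 2243 nt from the end of the window just outside and 68 at 1992 nt just inside.

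A further 10 reads, 5 each of runs 1 and 2, tied this locus to the spliced Jarid2 transcript. They began at 45011869 and spanned 3310 nt to 45015178, so that a read of 35 nt crossed a gap of 3275 nt. An intron of exactly this length is annotated in Jarid2 and is the last intron of 3 coding transcripts. The split of the reads over the gap is not in the files, so their last base is base 1 to 34 of the last exon. The locus began 79 nt and ended 1760 nt after that base. If the last exon has the same lengths in mm9, 27 positions with 406 records lay past the annotated end at 309 nt and 8 positions with 63 records past the end at 1196 nt, whatever the split. No position lay past the end at 1844 nt. Reads of the fifth and sixth groups thus began in the part of the exon that only the longest annotated form holds, while most of the records, 354 at 20 positions, began before the end at 1196 nt. Which end each of these reads was primed from was not tested.

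The 12 positions of Dnmt3l covered 273 nt, less than the 436 nt of the longest annotated last exon. They held from 2 to 74 records with a median of 19.5. The position with the most, 77526208, had 53 records of run 1 and 21 of run 2, or 27.4% of the locus. The first position, 77526036, followed with 47, and the top 3 positions made up 55.6%. The 8 records of run 3 at 77526251 were 4 reads listed 2 times, next to a position of set 1 at 77526252 with 29 records. No alignment of Dnmt3l crossed a gap.

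Runs 1 and 2 mostly held the same positions. Of the 27 positions of set 1 in the Jarid2 locus, 24 were in both runs, and of the 11 in the Dnmt3l locus, 10 were. Most positions were shared over the whole mES aggregate too, where run 1 had 38884 and run 2 had 34085 of the 41140 of set 1. Pearson's r of the records of run 1 and run 2 across positions was 0.81 for Jarid2 (27 positions) and 0.92 for Dnmt3l (11 positions). The positions of the 2 runs are taken here to share libraries and amplification, so this is a technical measure. The ratio of run 2 to run 1 records was 0.524 in the Jarid2 locus and 0.394 in that of Dnmt3l, against 0.464 over the whole mES aggregate. The 1 position of run 3 in each locus was not among those of set 1. Few positions were shared over the whole mES aggregate either, with 41140 in set 1, 14024 in run 3 and 53947 distinct ones in all. Each position was read 14.9 times in the Jarid2 locus and 22.5 times in the Dnmt3l locus, on both sides of the median of 16.3 over loci with at least 50 records.

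**Figure D4:**
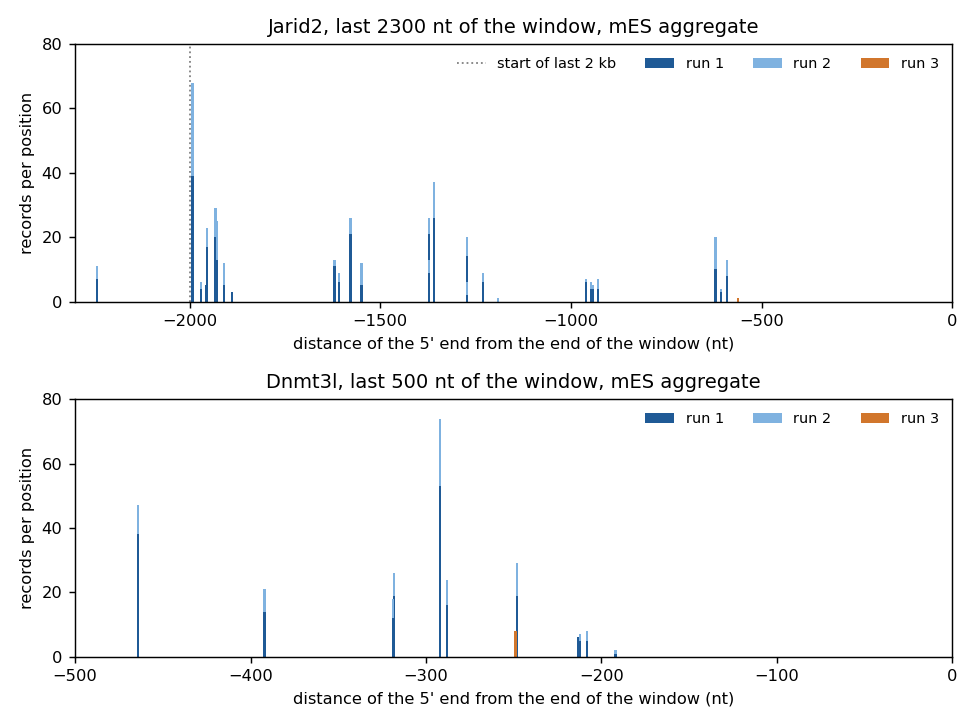
Records per position at the 3' end of Jarid2 (upper panel) and Dnmt3l (lower panel) in mES against the distance of the 5' end from the end of the window in nt, stacked by sequencing run. Jarid2 shows separate groups over 1682 nt with a highest position of 68 records, and Dnmt3l a single stretch of 273 nt with a highest position of 74.

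The rest of the Jarid2 window held 13 further loci, 12 of them a single position. Of all 14 loci of the window, 8 held records of run 3 only and 4 of set 1 only, and 5 had at least 10 records. The next after the 3' end locus ran from 44868812 to 44869245 with 46 records at 3 positions, or 61.3 CPM (44.9 to 81.7), 31 of them of run 1, 13 of run 2 and 2 of run 3. It was followed by a single position at 44902674 with 25 records, or 33.3 CPM (21.6 to 49.2), of which run 1 held 17 and run 2 held 8. A position at 44852386 had 10 records, all of run 3, and the gapped reads made up the remaining locus with 10. Of the 9 positions of run 3 outside the locus, none was a position of set 1, and the closest lay at 44868812, beside 44868816 of set 1 with 19 records. Over the whole mES aggregate, too, the sets shared few positions. Ungapped reads in the windows spanned 45 nt in run 3 and 35 nt in set 1. Whether this shifts positions between the sets was not tested. Whether the positions far from the 3' end lie in exons or introns was not analysed here.

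The nearest plus-strand mES records outside the Jarid2 window were 3 records at 2454 nt before its start and 12 at 1682546 nt after its end, and those nearest to Dnmt3l were 10 records at 53559 nt before and 1 at 363717 nt after. Inside, the first Jarid2 position lay 22379 nt after the start and the last 562 nt before the end, and for Dnmt3l these distances were 22036 and 192 nt.

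The loci most like each gene were sought among all 4321 by the Euclidean distance of log2(CPM + 1) over 6 values, 2 aggregates by 3 runs. Nearest to the Jarid2 locus was a minus-strand locus on chromosome 9 from 114416318 to 114416844, at a distance of 0.960, with 260 mES records at 17 positions. The next was a minus-strand locus on chromosome 2 from 32134384 to 32134596, at 1.31, with 218 records at 12 positions. Like Jarid2, each had a single record in run 3, which the search favoured, since the level in run 3 is among its 6 values. Nearest to Dnmt3l were plus-strand loci on chromosome 7 from 134380603 to 134381499, at 0.750 and with 185 records at 12 positions, and on chromosome 4 from 98403516 to 98405079, at 0.992 and with 182 records at 9 positions. None of these 4 loci had a mEF record, and the mEF levels were likewise part of the search. They are not named by gene.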

How the data were processed

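Barcodes were identified with Matlab code and the other read was aligned with Tophat by the authors, per the labels to mm9; the version is not given in the sources used here. The authors pooled the reads of each cell type and deposited each pool as a list of alignments that give the place, strand and name of each read and a mapping score with 4 values. No column holds counts, so records and distinct 5' positions were counted here. The deposited barcode list was not used, since the read names carry no barcode.

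Loci joined 5' ends at most 500 nt apart on one strand. CPM used all records of an aggregate, and 3 counts stood in place of 0 in ratios, with records taken as independent. Intervals are exact Poisson or Clopper-Pearson at 95%. Depth was 750739 records in mES and 459005 in mEF, so that 3 counts correspond to 4.00 and 6.54 CPM. The members, windows and lists were chosen with earlier results of these data known. The named loci are the members, the 3 with the most records in each window and the 2 most alike to each member. Introns, last exons and transcript ends came from GENCODE M21 (GRCm38) as lengths and sequences, with no coordinates. Alternatives were distinct positions, the highest mapping score, second copies dropped, without run 3, both strands, other totals, other 3' lengths and another floor. The scripts were first tested on simulated data. Python 3.11.15, numpy 2.4.6, pandas 2.3.3 and scipy 1.17.1 were used.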

Additional observations from a re-analysis of the deposited data

Results flagged for a closer look

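The minus strand of the Jarid2 window, which enters only the values counted over both strands and none of the report, held 335 mES records and 10 mEF records, each more than the 3 that a count of 0 allows. All of them lay in 1 locus, from 44964977 to 44965383 on chromosome 13, 52.1 kb before the end of the window. In mES it had 47 positions and 446 CPM (95% exact Poisson interval 400 to 497), and in mEF 6 positions and 21.8 CPM (10.4 to 40.1). Run 3 gave 85.4% of these mES records and 9 of the 10 mEF records, against 28 of the 529 plus-strand records of Jarid2. Of the mES records 20.9% had the highest mapping score, so that most of the reads also had other placements, and 46 were second copies of a record. The part of multiple placement and of run 3 in this locus was not tested. The minus strand of the Dnmt3l window had no record in either aggregate.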

How the results depend on the processing

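Of 53 values under alternatives, 30 stayed within the 95% counting interval (or, for the count of loci, within 1.5 times), 23 moved and 0 changed direction. The last number says little, since levels, shares and the count of loci have no direction. The ratios are of members chosen as high in mES, with 0 plus-strand mEF records, so they could hardly reverse. For Jarid2, the mES level of 705 CPM became 797 positions per 1000000 in distinct positions, 903 CPM with the highest mapping score only, 780 without run 3, 257 in run 3 only, 1151 with both strands, 771 with totals that leave out the mitochondrial chromosome and the chromosome 17 locus, and 541 in the last 2 kb only. Its log2 ratio of mES to mEF with 3 counts in place of 0, 6.75, became 2.75 in distinct positions, 6.37 in the last 2 kb only and 8.34 with a floor of 1 count. With both strands the ratio was 5.72. Its share in the last 2 kb, 76.7%, became 62.8% in distinct positions, 80.8% without run 3, 3.57% in run 3 only, 47.0% with both strands and 11.9% in the last 1 kb, and stayed within the interval for the last 5 kb and the 3' end locus, at 78.8%. For Dnmt3l, the level of 360 CPM became 222 positions per 1000000, 462 CPM with the highest mapping score only, 408 without run 3 and 73.5 in run 3 only. Its log2 ratio with 3 counts in place of 0, 5.78, became 0.90 in distinct positions and 7.37 with a floor of 1 count. Its share of 100% did not move under any of these. The number of loci over 4-fold higher in mES, 1303, fell to 1 in distinct positions, where the minimum of 50 applies to positions and few loci reach it. Other totals, fewer positions, the other strand and the shorter 3' part act through the counts they leave in or out, and beyond that the cause was not tested. Run 3 only, and the alternatives for the number of loci, were chosen after seeing the data. No ratio is given for run 3 only, as its mEF records are too few for a limit above 1 for Dnmt3l. Leaving out single libraries was not possible, since the records carry no library.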
